A study of Mus musculus with 6 samples.

Results

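Molecular chaperones and protein folding enzymes were examined in liver macrophages with and without Egr2. The genes were those with symbols of the HSP70/HSP110 (Hspa, Hsph), HSP90, HSP60/HSP10 (Hspd, Hspe), small heat shock protein (Hspb), J-domain (Dnaja, Dnajb, Dnajc), CCT and protein disulfide isomerase (Pdia) families. Family here means a matching symbol, so relatives with other symbols are not in the set, and some are in the further lists below. Of 74 symbols that fitted, 5 were left out, namely Hspbap1 and the 4 pseudogenes Hspe1-ps3, Hspd1-ps3, Dnajc19-ps and Dnajb6-ps. This left 69 of the 13886 genes in the table. They comprised 11 HSP70 and HSP110 genes, 3 HSP90 genes, 3, 10 and 24 J-domain genes of classes A, B and C, 4 small heat shock protein genes, 3 HSP60 and HSP10 genes, 7 CCT subunits and 4 protein disulfide isomerases. All 69 reached the 1 TPM, averaged over the 6 libraries, that testing required. TPM, a measure of transcript abundance, scales reads by gene length and library total, so levels of different genes can be compared.

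The study asked what Egr2, a zinc finger transcription factor, does in macrophages of a liver with metabolic dysfunction-associated steatohepatitis. Bulk RNA sequencing was done on liver macrophages from 3 Lyz2cre/+.Egr2fl/fl mice and 3 Egr2fl/fl mice, all fed CDA-HFD, a high-fat diet that lacks choline and brings on steatosis, inflammation and fibrosis. All 6 mice carry Egr2 alleles flanked by loxP sites, and in Lyz2cre/+.Egr2fl/fl mice Cre made from 1 Lyz2 allele, a locus of myeloid cells, deletes them. Because Cre is absent from Egr2fl/fl mice, what Cre itself or the altered Lyz2 allele does and what the loss of Egr2 does cannot be told apart. The age of the mice and the weeks on the diet were not given in the labels.

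Egr2 itself had 9.08, 9.64 and 10.5 TPM in the libraries of Lyz2cre/+.Egr2fl/fl mice, against 122.6, 120.2 and 126.1 TPM in the Egr2fl/fl libraries (log2 difference -3.53 ± 0.08, SE, limma adjusted p = 5.75e-06). Whole reads recovered from the TPM steps came to at least 6497770 in the shallowest library and 8569062 in the deepest. All 12 macrophage markers were present, with sums of 32239 to 32657 TPM in Lyz2cre/+.Egr2fl/fl libraries and 32504 to 36501 TPM in Egr2fl/fl libraries. Of these, Adgre1, Fcgr1, Mertk and C1qc rose and Lyz2 fell. Lyz2 is the locus that carries Cre, and its mean was 6502 TPM against 10719 TPM in Egr2fl/fl libraries, which enters the sums. The part of the altered allele in this fall was not tested. All 18 endothelial markers were higher in Lyz2cre/+.Egr2fl/fl libraries, with sums of 746 to 852 TPM against 160 to 190 TPM in Egr2fl/fl libraries, and none was at 0 in any library. Hepatocyte markers summed to 215 to 390 TPM against 255 to 1022 TPM in Egr2fl/fl libraries, so the sums overlapped. Yet all 19 differences were below 0, with a median of -0.45 log2 units. The genotypes did not overlap in 2 of the 19 (10.5%), against 25.2% of all genes, and voom called 2 lower. By limma 1 of 19, Ass1, fell, with 50.3, 55.4 and 41.5 TPM against 116, 102 and 131 TPM in Egr2fl/fl libraries. Its SD within genotypes was 0.20 log2 units, the smallest of a list with a median of 0.97, so it varied less between libraries than the others. Of 6 listed neutrophil and monocyte markers, S100a8 and S100a9 fell by limma, while voom called 1 of the 6 lower. Both were at low levels, with means of 1.73 and 0.45 TPM against 6.24 and 3.19 TPM in Egr2fl/fl libraries. Of 5 listed lymphocyte markers, Cd79b rose and Klrb1c fell, and of 7 listed stellate cell and fibroblast markers 0 were called (limma; 1 at an unadjusted p below 0.05 and 0 by voom). In a bulk library, fewer cells of a type and less RNA per cell cannot be told apart. The part of other cells in the results below was not tested.

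Chaperones bind unfolded proteins and let them fold or pass them to degradation. HSP70 proteins do so in cycles of ATP hydrolysis started by J-domain proteins, HSP90 acts later on kinases and receptors, CCT folds actin and tubulin in a closed chamber, and the endoplasmic reticulum (ER) has its own set with disulfide isomerases. Proteotoxic stress in the cytosol raises chaperone transcription through HSF1, which binds heat shock elements. Unfolded protein in the ER raises ER chaperones through ATF6 and XBP1, with the ER stress element (ERSE) as a binding site. Macrophages are secretory cells and use both systems.

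Promoter sequences of 56 of the 69 genes were matched by symbol in RefSeq (GRCm38.p6), each spanning 250 bases before to 50 bases after the start. Short windows around some of the stress elements are shown because several ER genes and heat shock genes differed between libraries, as described further on. Dnajb6, also shown, varied little, with an SD within genotypes of 0.09 log2 units against a median of 0.13 for the 69 genes. The ERSE searched was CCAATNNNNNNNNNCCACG, on both strands. It was present in 37 of 27025 promoters (0.137%) and in 4 of the 56 (7.14%), all genes of ER proteins. In the lines that follow, capitals mark the bases given in the ERSE, 5′ to 3′ on the strand of the gene, with 10 bases on either side.
Hspa5 (chr2:34772015-34772053, plus strand): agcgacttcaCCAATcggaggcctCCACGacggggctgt
Hsp90b1 (chr10:86705628-86705666, minus strand): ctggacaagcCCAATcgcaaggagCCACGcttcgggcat
Hsp90b1, reverse orientation (chr10:86705523-86705561, minus strand): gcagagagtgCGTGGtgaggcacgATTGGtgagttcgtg
Pdia6 (chr12:17266481-17266519, plus strand): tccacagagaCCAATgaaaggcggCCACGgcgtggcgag
Dnajc3 (chr14:118937817-118937855, plus strand): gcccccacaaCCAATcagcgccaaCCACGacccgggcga

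Beginning 65 bases before the start, the Hspa5 match was the nearest to its gene, and the first match of Hsp90b1, 212 bases before it, was the farthest. A heat shock element of 3 alternating units, GAANNTTCNNGAA on either strand, was present in 179 promoters (0.662%) and in 4 of the 56 (7.14%), those of Dnajb6, Hspd1, Hspe1 and Hsph1. Hspd1 and Hspe1, which encode the mitochondrial HSP60 and its lid HSP10, lie head to head and share a run of 4 units, made of 2 overlapping matches. In the next lines capitals mark the units.
Hspe1 (chr1:55088049-55088086, plus strand): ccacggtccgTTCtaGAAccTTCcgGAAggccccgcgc
Dnajb6 (chr5:29735842-29735874, plus strand): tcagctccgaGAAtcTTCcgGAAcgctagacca

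The 2-unit form GAANNTTC was far more common, in 9.04% of promoters and in 11 of the 56 (19.6%), Hspa1a and Hspa1b among them. It overlaps the 3-unit form. The EGR element GCGTGGGCG was present in 191 promoters (0.707%) and in 2 of the 56, those of Dnaja1, a J-domain partner of cytosolic HSP70, and Dnajc17. The log2 difference of Dnaja1 was 0.01 ± 0.13 (SE), and that of Dnajc17 -0.36 ± 0.13. A match is a run of letters only, not evidence of binding.

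None of the 69 genes differed between the genotypes at an adjusted p below 0.05 in limma. Of the 69, macrophages of Lyz2cre/+.Egr2fl/fl mice had 0 higher and 0 lower (limma on log2(TPM + 1), 2-sided, Benjamini-Hochberg over 13777 genes), while 6.24% of all tested genes were called, 4.38% higher and 1.87% lower. The lowest adjusted p was 0.10, for Dnajc14. At an unadjusted p below 0.05 there were 11 of 69, where 19.6% of all genes passed. The genotypes did not overlap in 13 of the 69 genes (18.8%), 7 higher and 6 lower, and in 25.2% of all genes, 17.0% higher and 8.27% lower. The 69 differences were spread on both sides of 0, with 36 positive and 33 negative and a median of 0.01, against 0.04 over all genes tested. The sign of both medians depended on the scaling, since they were -0.045 and -0.009 with median-of-ratios scaling, -0.044 and -0.010 with quantile normalization and -0.021 and 0.013 with voom. A fit of the recovered reads (voom) called 0 higher and 2 lower, Hspa1a and Hspa1b, where it called 8.41% of all genes, 5.63% higher and 2.77% lower.

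The intervals showed how large a difference these libraries leave room for. The 95% interval lay within 0.5 log2 units of 0 for 45 of the 69 genes (65.2%), against 51.2% of all genes, and within 1 log2 unit for 64 (92.8%), against 79.7%. The interval passed 1 log2 unit for 5 genes, Hspa1a, Hspa1b, Hspb9 and Dnajc28 among them. Together the 69 genes summed to 13801, 13280 and 11473 TPM in Lyz2cre/+.Egr2fl/fl libraries, against 12240, 14315 and 13176 TPM in the Egr2fl/fl libraries. These sums overlapped, and the lowest was Lyz2cre/+.Egr2fl/fl replicate 3.

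**Figure D1:**
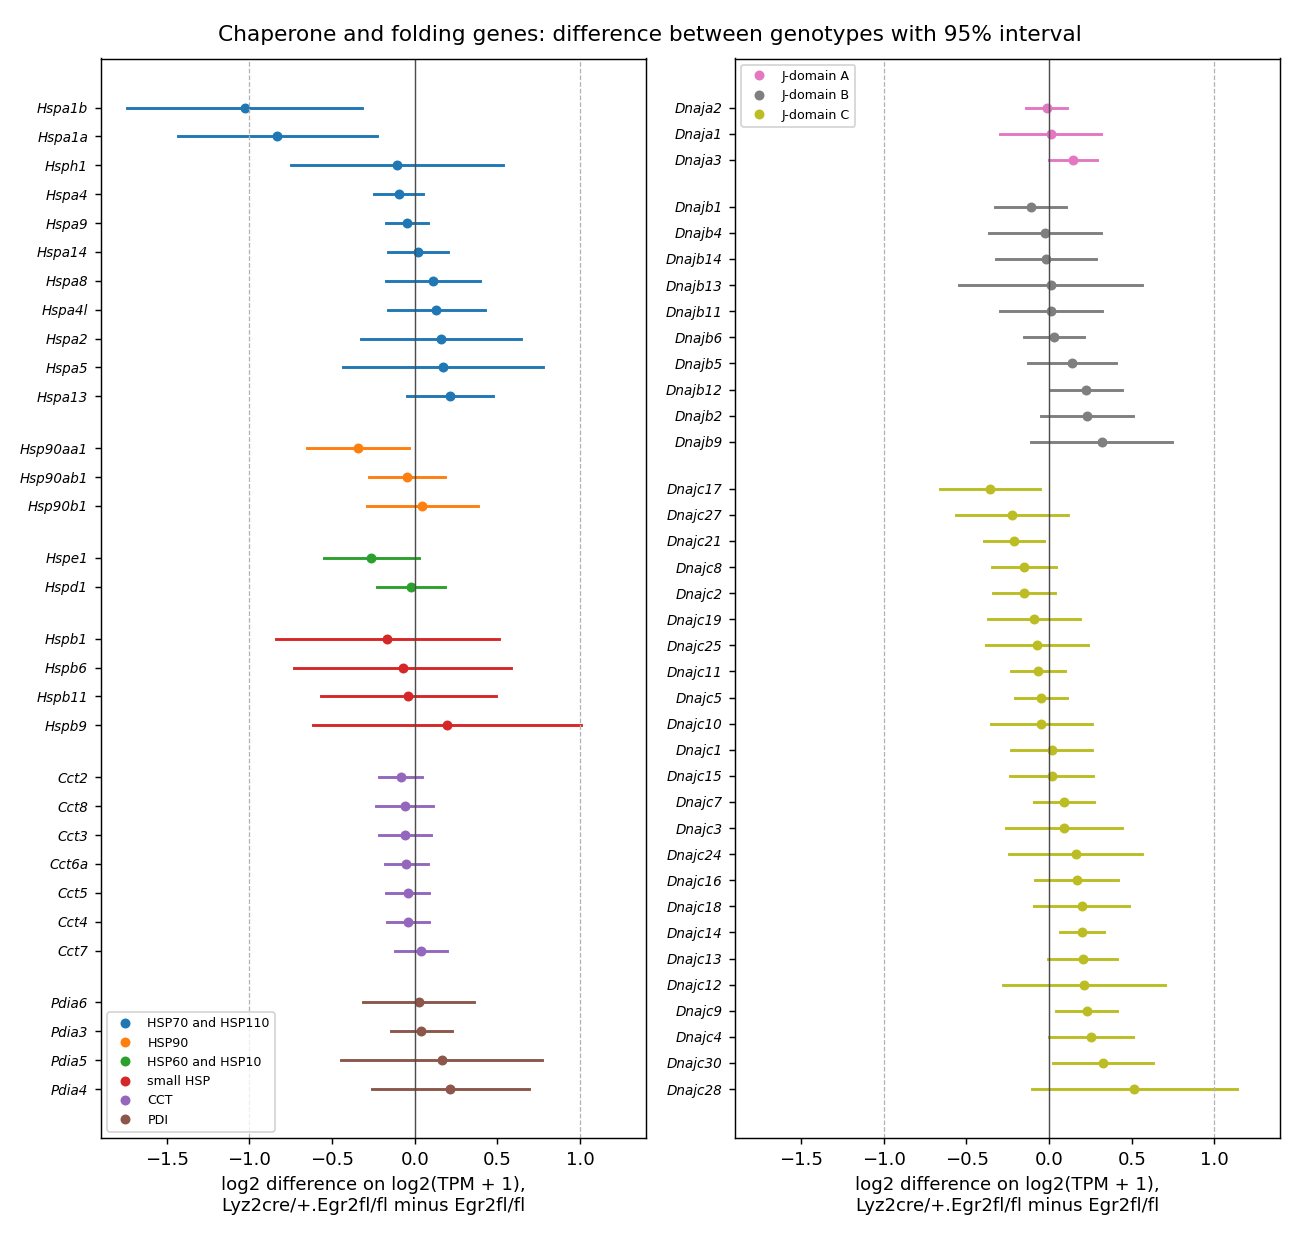
Log2 difference on log2(TPM + 1), Lyz2cre/+.Egr2fl/fl minus Egr2fl/fl (x axis), for 68 of the 69 genes (rows, by family), with points for the estimate and lines for its 95% interval from limma, 3 libraries per genotype. Dashed lines stand at 1 log2 unit either way. Hspa1b (-1.03) and Hspa1a (-0.83) stand furthest to the left, and the 7 CCT intervals are among the shortest.

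The most abundant genes of the set were the constitutive cytosolic chaperones. Hspa8, the constitutive HSP70 (HSC70), had the highest mean, with 2362, 2423 and 1964 TPM in Lyz2cre/+.Egr2fl/fl libraries and 1858, 2440.2 and 1958 TPM in Egr2fl/fl libraries. Hsp90ab1, the constitutive HSP90, had 2149.8, 2088 and 1702 TPM, against 1882, 2134 and 2091 TPM in Egr2fl/fl libraries. For both genes the genotypes overlapped, and the log2 differences were 0.11 ± 0.12 and -0.05 ± 0.10 (SE). Next came the ER proteins Pdia3 (mean of all libraries 912 TPM), Hspa5 (906 TPM), Hsp90b1 (777 TPM) and Pdia6 (532 TPM). Some neighbours in this order did not differ beyond their spread, since the libraries of Hspa8 overlapped those of Hsp90ab1, and those of Pdia3 overlapped those of Hspa5 and Hsp90b1. The lowest mean was that of Hspb9 (1.91 TPM), a small heat shock protein known from testis.

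The stress-inducible HSP70 pair had the most negative differences of the 69. Hspa1b had 498, 196 and 293 TPM in Lyz2cre/+.Egr2fl/fl replicates 1 to 3, against 713, 585 and 587 TPM in the Egr2fl/fl replicates. Hspa1a had 371, 173 and 218 TPM, against 486, 406 and 402 TPM in the Egr2fl/fl replicates. In both genes every Lyz2cre/+.Egr2fl/fl library was below every Egr2fl/fl library, and replicate 1 of Lyz2cre/+.Egr2fl/fl was the nearest to them. Mean TPM was 329 ± 154 in Lyz2cre/+.Egr2fl/fl and 629 ± 73.3 in Egr2fl/fl macrophages for Hspa1b, and 254 ± 104 and 431 ± 47.5 for Hspa1a (SD, n = 3 each). The log2 differences were -1.03 ± 0.30 (SE, limma adjusted p = 0.112) for Hspa1b and -0.83 ± 0.26 (limma adjusted p = 0.126) for Hspa1a, so neither passed.

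Whether the pair passed depended on the fit. Under voom on the recovered reads both were lower, with -1.07 (adjusted p = 0.0162) for Hspa1b and -0.87 (adjusted p = 0.0212) for Hspa1a. They also passed in limma without Lyz2cre/+.Egr2fl/fl replicate 1, with -1.38 (adjusted p = 0.0210) and -1.14 (adjusted p = 0.0142), a fit in which 3.15% of all genes were called, 2.18% higher and 0.973% lower. Over all alternatives the adjusted p reached 0.269 for Hspa1b and 0.310 for Hspa1a. The difference ran from -1.38 to -0.71 for Hspa1b and from -1.14 to -0.59 for Hspa1a. Because the genotypes did not overlap, leaving out a library could not turn its sign. The immediate early genes, another set of genes that respond to stimuli within minutes, summed to 15456, 17346 and 14260 TPM in Lyz2cre/+.Egr2fl/fl libraries and to 15779, 15902 and 15999 TPM in Egr2fl/fl libraries. Of these 22 genes limma called 0 higher and 1 lower, Junb (-0.29 ± 0.05, limma adjusted p = 0.0195, between 0.00441 and 0.103 over the alternatives), while voom called 2 higher and 3 lower. At an unadjusted p below 0.05 there were 9 of the 22, and the genotypes did not overlap in 8 (36.4%), where 19.6% and 25.2% of all genes were so placed.

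Hspa1a and Hspa1b are near-identical copies on chromosome 17, both on the minus strand, at 34969190-34972156 and 34956436-34959238 (GRCm38, GENCODE vM21). Reads can be split between such copies in counting, so they count as 1 observation rather than 2, and the level of either alone is uncertain. The copies are alike in front of the gene too. Of the 250 bases before the start, 3 differed (98.8% identical), and in both the 2-unit heat shock element gaagattc began 104 bases before the start. Both stretches are printed because the genes have this promoter in common as well as the low Lyz2cre/+.Egr2fl/fl levels, with capitals at the bases that differ.
Hspa1a (chr17:34972157-34972406, minus strand): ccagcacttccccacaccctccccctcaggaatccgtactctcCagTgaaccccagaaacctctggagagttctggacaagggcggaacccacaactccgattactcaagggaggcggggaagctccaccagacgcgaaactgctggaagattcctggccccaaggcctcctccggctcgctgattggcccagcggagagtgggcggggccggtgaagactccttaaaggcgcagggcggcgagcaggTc
Hspa1b (chr17:34959239-34959488, minus strand): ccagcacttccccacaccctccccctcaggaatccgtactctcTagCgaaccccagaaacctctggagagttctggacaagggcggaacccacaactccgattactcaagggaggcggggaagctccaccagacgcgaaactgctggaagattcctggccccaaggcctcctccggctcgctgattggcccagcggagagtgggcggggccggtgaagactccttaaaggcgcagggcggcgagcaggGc

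**Figure D2:**
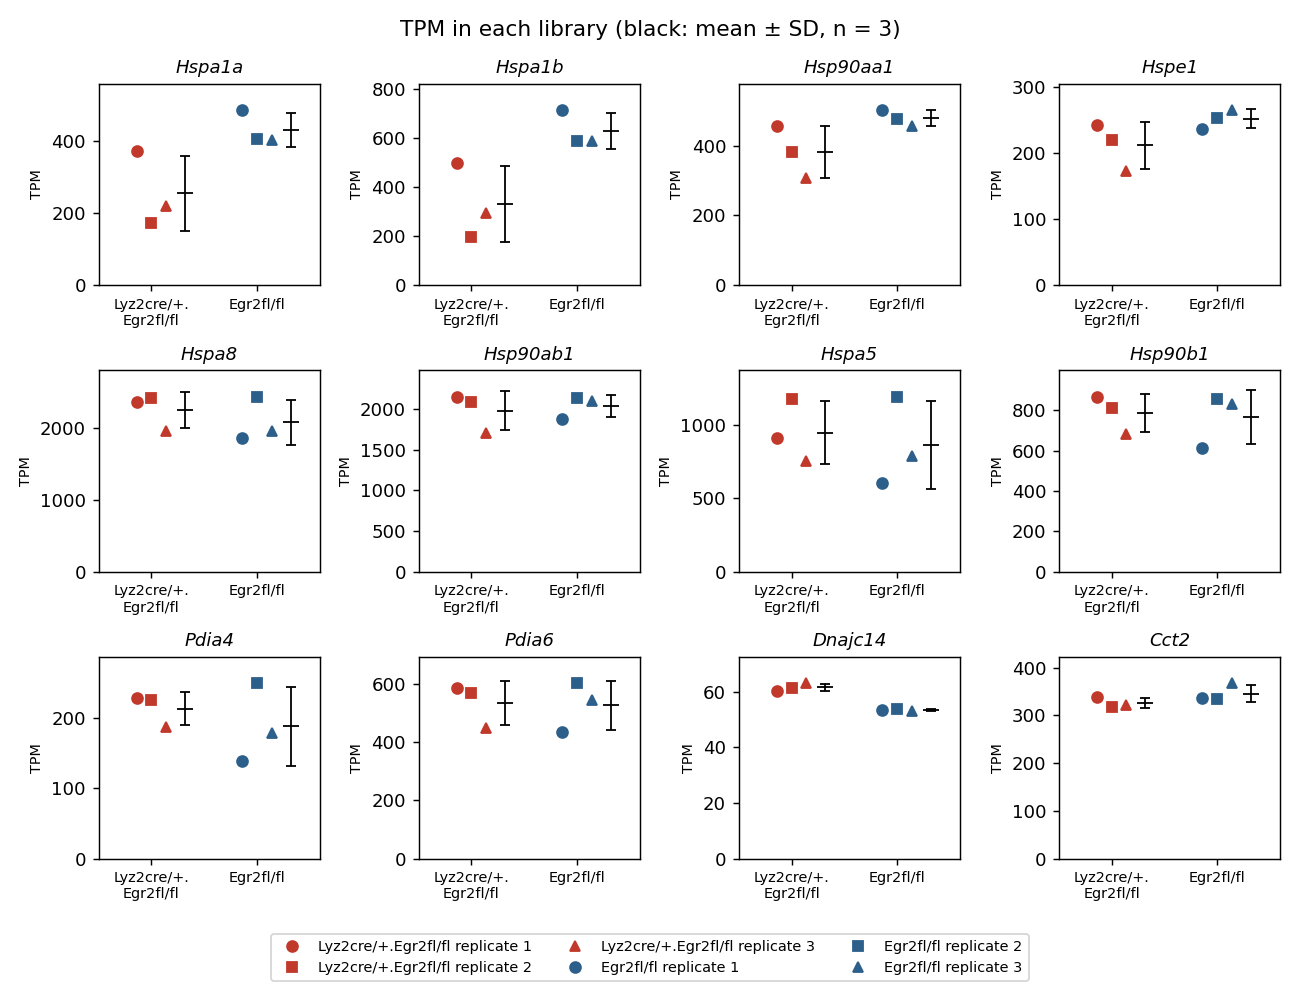
TPM (y axis, from 0) of 12 genes in each library, Lyz2cre/+.Egr2fl/fl left (red) and Egr2fl/fl right (blue), with the mean ± SD of 3 libraries in black. Hspa1a, Hspa1b and Hsp90aa1 are lower in all 3 Lyz2cre/+.Egr2fl/fl libraries, Dnajc14 is higher in all 3, and in the other panels the genotypes overlap.

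Of 13 genes listed as HSF1 targets within the families, 12 were in the table. None passed in limma, and 3 of the 12 had an unadjusted p below 0.05, where 19.6% of all genes did. Voom called 2 lower, where it called 2.77% of all genes lower. These 2 were Hspa1a and Hspa1b, which count as 1 observation and are also among the 3. The median log2 difference was -0.11, with 9 of 12 negative, against 0.04 and 5743 of 13777 over all genes tested. The third gene under an unadjusted 0.05 was Hsp90aa1, the inducible HSP90. It had 456, 382 and 308 TPM in Lyz2cre/+.Egr2fl/fl libraries, against 502, 477 and 457 TPM in Egr2fl/fl libraries, without overlap (-0.34 ± 0.13, SE, limma adjusted p = 0.209). Hsph1, the HSP110 exchange factor of HSP70, had 58.1, 71.9 and 37.4 TPM, against 54.1, 78.7 and 46.0 TPM in Egr2fl/fl libraries (-0.11 ± 0.27, SE). Its libraries overlapped widely, and the highest was Egr2fl/fl replicate 2. Dnajb1, the J-domain partner of inducible HSP70, had a difference of -0.11 ± 0.09, Dnaja1 of 0.01 ± 0.13 and Hspa4l, an HSP110 relative, of 0.13 ± 0.13. Hspb1 (HSP27), at a mean of 9.32 TPM, had a difference of -0.17 ± 0.29.

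Within the Lyz2cre/+.Egr2fl/fl genotype, replicate 3 was the lowest library in 10 of the 12 HSF1 targets (83.3%), in 36 of the 69 chaperone and folding genes (52.2%) and in 25.2% of all genes. The exceptions were Hspa1a and Hspa1b, which were lowest in replicate 2. The summed TPM of the 12 genes was 6523, 5939 and 5012 in Lyz2cre/+.Egr2fl/fl replicates 1 to 3 and 6083, 6762 and 6176 in the Egr2fl/fl replicates. Replicates 2 and 3 of Lyz2cre/+.Egr2fl/fl lay below all Egr2fl/fl libraries, while replicate 1 lay between them.

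HSP60 and HSP10 fold proteins of the mitochondrial matrix. Hspd1 (HSP60) had 220.0, 212 and 182 TPM in Lyz2cre/+.Egr2fl/fl libraries and 191, 216 and 216 TPM in Egr2fl/fl libraries, a difference of -0.02 ± 0.09 (SE). Hspe1 (HSP10), which shares its promoter region with Hspd1, had 243, 219 and 173 TPM, against 237, 253 and 265 TPM in Egr2fl/fl libraries (-0.26 ± 0.12, SE, limma adjusted p = 0.296). Both overlapped between genotypes. Hspa9, the HSP70 of mitochondria, differed by -0.05 ± 0.05 and Dnaja3, its J-domain partner, by 0.14 ± 0.06 (limma adjusted p = 0.265). The 10 mitochondrial genes of the set had a median difference of -0.0041 log2 units, with 5 above 0 and 5 below.

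The CCT chaperonin was evenly expressed. Its 7 listed subunits had means between 168 and 341 TPM, and the spread between libraries of a genotype had a median SD of 0.06 log2 units, against 0.13 for all 69 genes and 0.16 for all genes tested. Gene levels were not matched in that comparison. Cct5 had 345, 339 and 323 TPM in Lyz2cre/+.Egr2fl/fl libraries and 331, 342 and 366 TPM in Egr2fl/fl libraries. Cct2 had 338, 318 and 322 TPM, against 336, 335 and 367 TPM in Egr2fl/fl libraries. Differences ran from -0.08 (Cct2) through -0.05 (Cct6a) to 0.04 (Cct7), and Cct3, Cct4, Cct5 and Cct8 lay between -0.06 and -0.04. All 7 intervals were inside 0.5 log2 units, with outer bounds of -0.23 and 0.19. The summed level of the 7 was 1715, 1643 and 1575 TPM in Lyz2cre/+.Egr2fl/fl libraries, against 1636, 1699.5 and 1764 TPM in Egr2fl/fl libraries. Even here replicate 3 of Lyz2cre/+.Egr2fl/fl was the lowest of its genotype in 6 of the 7 subunits.

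**Figure D3:**
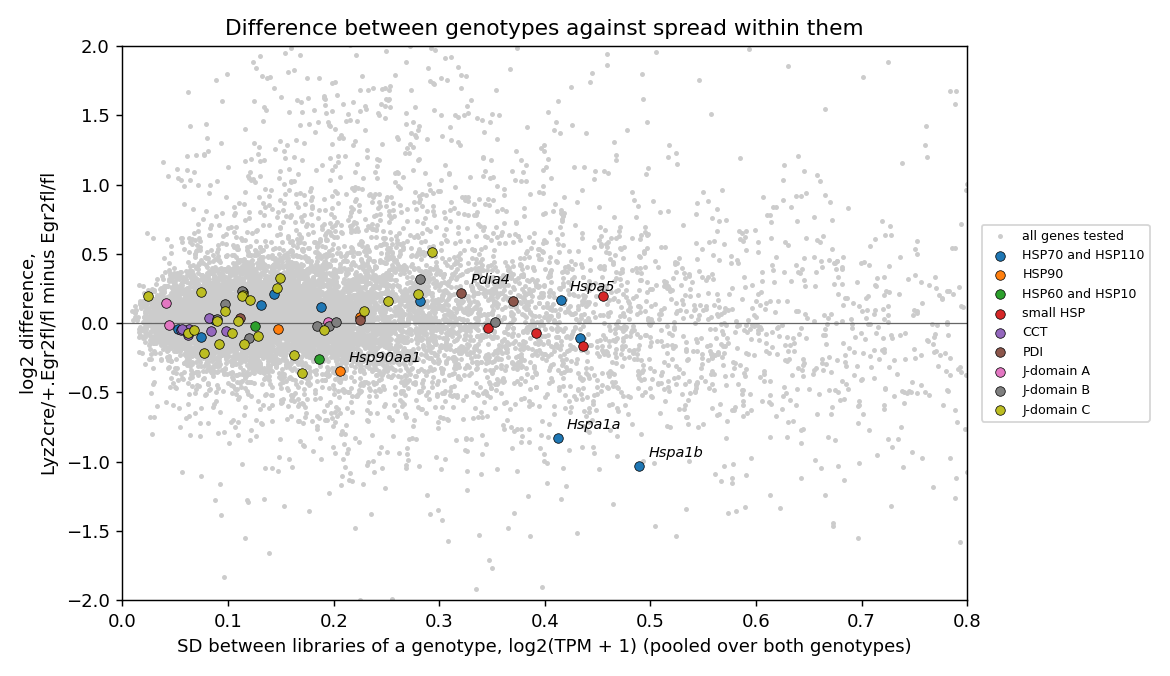
Log2 difference between genotypes (y axis, Lyz2cre/+.Egr2fl/fl minus Egr2fl/fl) against the SD between libraries of a genotype on log2(TPM + 1), pooled over both genotypes (x axis), for all genes tested (grey) and 68 of the 69 genes (coloured by family). CCT points lie at the left near 0, Hspa5 and Pdia4 at the right near 0, and Hspa1a and Hspa1b at the lower right, while 870 genes lie outside the axes.

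Among the 37 J-domain genes, which pick the substrates of HSP70, 0 were called by limma or voom. In 7 of the 37 the unadjusted p was below 0.05, where it was in 19.6% of all genes, and the median difference was 0.02. Dnajc14, a J-domain protein of the ER membrane, had 60.2, 61.4 and 62.9 TPM in Lyz2cre/+.Egr2fl/fl libraries and 53.5, 53.9 and 53.0 TPM in Egr2fl/fl libraries. It had the smallest spread of all 69 genes, and the difference of 0.20 ± 0.06 (SE, limma adjusted p = 0.10) is small in fold terms. Dnajc9, a histone chaperone, had 32.6, 34.4 and 33.1 TPM, against 30.7, 27.0 and 27.5 TPM in Egr2fl/fl libraries (0.23 ± 0.08, limma adjusted p = 0.167). Dnajb12, an ER membrane J-domain protein, had 43.3, 46.9 and 52.4 TPM, against 42.2, 41.5 and 37.7 TPM in Egr2fl/fl libraries (0.22 ± 0.09, limma adjusted p = 0.233). In each of these 3 genes the genotypes did not overlap. The same held for 9 of the 37 J-domain genes (24.3%), near the 25.2% of all genes.

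In the other direction, Dnajc17, a splicing-related J-domain protein, had 18.3, 17.1 and 18.6 TPM in Lyz2cre/+.Egr2fl/fl libraries and 20.8, 21.7 and 28.3 TPM in Egr2fl/fl libraries (-0.36 ± 0.13, limma adjusted p = 0.177). Dnajc21, which acts in the making of the large ribosomal subunit, had 35.6, 31.4 and 34.0 TPM, against 37.3, 40.9 and 39.4 TPM in Egr2fl/fl libraries (-0.21 ± 0.08, limma adjusted p = 0.183). Neither passed. They were the 2 lower genes among the 9 J-domain genes without overlap. Of the mitochondrial J-domain proteins, Dnajc30 differed by 0.33 ± 0.13 and Dnajc4 by 0.26 ± 0.11, with adjusted p of 0.221 and 0.252 in limma. Of the most abundant J-domain genes, Dnajc8 was at -0.15 ± 0.08, Dnaja2 at -0.01 ± 0.05 and Dnajc7 at 0.09 ± 0.08. Dnajb6, which holds aggregation-prone proteins in solution and carries the heat shock element printed above, was at 0.03 ± 0.08. Dnajb2 (0.23 ± 0.12, limma adjusted p = 0.354) was higher in all 3 Lyz2cre/+.Egr2fl/fl libraries at a mean of 10.4 TPM. The 4 small heat shock protein genes had wide intervals at low levels. Hspb11, now known as a subunit of intraflagellar transport, differed by -0.04 ± 0.22 and Hspb9 by 0.19 ± 0.34.

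The 17 folding genes of the ER differed among libraries of the same genotype, with a median SD of 0.19 log2 units. That median was 0.13 for all 69 genes and 0.16 for all genes tested, but also 0.19 for HSP70 and HSP110 genes and 0.21 for HSP90 genes. Of the 17, 0 were called between genotypes by limma or voom, with 2 at an unadjusted p below 0.05, where 19.6% of all genes were. Hspa5 (BiP), the HSP70 of the ER, had 913, 1179 and 755 TPM in Lyz2cre/+.Egr2fl/fl replicates 1 to 3 and 607, 1194 and 788 TPM in the Egr2fl/fl replicates. The lowest and the highest value were both from Egr2fl/fl mice, 1.97 times apart. Its difference was 0.17 ± 0.26 (SE, limma adjusted p = 0.788), and -0.06 without Egr2fl/fl replicate 1. Hsp90b1 (GRP94), the HSP90 of the ER, had 866, 809 and 684 TPM, against 614, 856 and 831 TPM in Egr2fl/fl libraries (0.05 ± 0.14, and -0.11 without Egr2fl/fl replicate 1). Hsp90b1 is on the list of Kupffer cell genes that the study used.

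Of the 4 disulfide isomerases, 3 had the same library order in Egr2fl/fl mice. Pdia4 had 227, 225 and 186 TPM in Lyz2cre/+.Egr2fl/fl libraries and 138, 248 and 177 TPM in Egr2fl/fl libraries (0.21 ± 0.20, SE). Pdia6 had 587, 571 and 449 TPM, against 436, 602 and 545 TPM in Egr2fl/fl libraries (0.02 ± 0.14), and Pdia3 had 977, 942 and 855 TPM, against 816, 963 and 920.2 TPM in Egr2fl/fl libraries (0.04 ± 0.08). In these 3 genes Egr2fl/fl replicate 1 was the lowest and replicate 2 the highest of its genotype. Pdia5 had another order, with 6.40, 8.07 and 5.10 TPM in Lyz2cre/+.Egr2fl/fl libraries and 5.54, 8.04 and 3.94 TPM in Egr2fl/fl libraries, where replicate 3 was the lowest (0.16 ± 0.26). Among ER J-domain proteins, Dnajc3 (P58IPK), an inhibitor of the kinase PERK, had 90.7, 91.8 and 78.4 TPM, against 69.6, 103 and 75.0 TPM in Egr2fl/fl libraries. Dnajb11, a BiP partner, had 151, 155 and 132 TPM, against 119, 169 and 151 TPM in Egr2fl/fl libraries. Dnajb9, an inducible BiP partner that holds back IRE1, had 69.5, 83.1 and 62.2 TPM, against 51.8, 74.5 and 47.4 TPM in Egr2fl/fl libraries (0.32 ± 0.18, limma adjusted p = 0.405). Hspa13, a less abundant HSP70 of the ER, kept another order, highest in Lyz2cre/+.Egr2fl/fl replicate 3 (33.7 TPM).

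Egr2fl/fl replicate 2 was the highest of its genotype in 13 of the 17 ER genes (76.5%), where it was the highest in 24.8% of all genes, and replicate 1 was the lowest in 9 of the 17 (52.9%), against 21% of all genes. This order was not limited to ER genes. The 2 shares were 44.9% and 40.6% over all 69 genes and 50% and 58.3% over the 12 HSF1 targets. Among the 7 CCT subunits, replicate 2 was the highest in 28.6% and replicate 1 the lowest in 71.4%. In the other genotype, Lyz2cre/+.Egr2fl/fl replicate 3 was the lowest in 9 of the 17 (52.9%), about its share of all 69 genes. Summed TPM over the 17 genes was 4140.1, 4307 and 3486 in Lyz2cre/+.Egr2fl/fl replicates 1 to 3, against 3102, 4452 and 3776 in the Egr2fl/fl replicates, so the Egr2fl/fl libraries enclosed the others. For the 4 disulfide isomerases alone the median SD was 0.27 log2 units, from 0.11 for Pdia3 to 0.37 for Pdia5, which has a mean of 6.18 TPM. The genes were not independent of each other, and these counts describe 6 libraries.

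**Figure D4:**
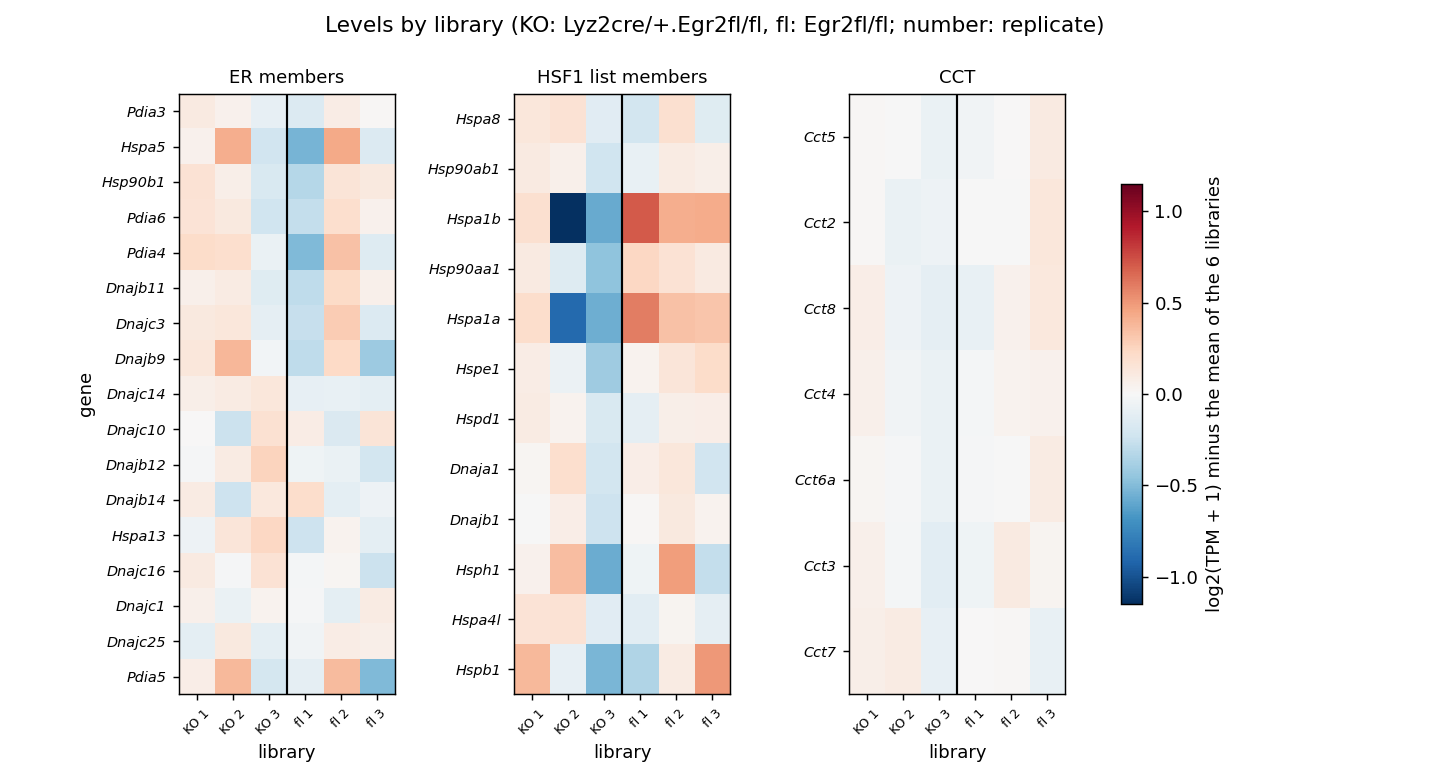
Level of each gene (rows) in each library (columns, Lyz2cre/+.Egr2fl/fl replicates 1 to 3 left of the line, Egr2fl/fl replicates 1 to 3 right of it), as log2(TPM + 1) minus the mean of the 6 libraries, for 17 ER genes, 12 HSF1 targets and 7 CCT subunits, each from the highest mean down. The upper ER rows are blue in Egr2fl/fl replicate 1 and red in replicate 2, Hspa1a and Hspa1b are blue in Lyz2cre/+.Egr2fl/fl replicates 2 and 3, and the CCT rows are pale.

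A like library order was seen in ER folding genes outside the 69. Of 38 genes listed as ER folding partners or targets of the unfolded protein response, 36 were in the table, and Egr2fl/fl replicate 2 was the highest of its genotype in 26 (72.2%), replicate 1 the lowest in 23 (63.9%), and Lyz2cre/+.Egr2fl/fl replicate 3 the lowest of its own in 23 (63.9%). Over all genes tested these shares were 24.8%, 21% and 25.2%, and over the 69 genes 44.9%, 40.6% and 52.2%. The median SD within genotypes of the 36 genes was 0.12 log2 units, against 0.16 for all genes tested. Sdf2l1, an ER partner of BiP, had 327, 322 and 243 TPM in Lyz2cre/+.Egr2fl/fl libraries and 223, 382 and 259 TPM in Egr2fl/fl libraries. Hyou1 (GRP170), its nucleotide exchange factor, had 158, 173 and 122 TPM, against 104, 204 and 138 TPM in Egr2fl/fl libraries. Of the 37 promoters with the printed ERSE, 14 belonged to tested genes, the 4 members among them. Egr2fl/fl replicate 2 was the highest of its genotype in 10 of the 14, replicate 1 the lowest in 8, and Lyz2cre/+.Egr2fl/fl replicate 3 the lowest of its own in 10. Each of these counts includes the 4 members, whose values are given above, so in part they repeat those values. Whether the ERSE has a part in the order was not tested. By limma 1 of the 14, Adcy3, rose and 0 fell between genotypes.

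Of the 36 ER genes 1 rose and 0 fell. Tmx1, a transmembrane thioredoxin of the ER, had 114, 114 and 117 TPM in Lyz2cre/+.Egr2fl/fl libraries and 87.2, 97.1 and 95.2 TPM in Egr2fl/fl libraries (0.30 ± 0.06, SE, limma adjusted p = 0.0294). The call ended when any 1 of the 6 libraries was left out, with adjusted p of 0.0529 to 0.104, and also with the replicate block (0.0791), median-of-ratios scaling (0.114), quantile normalization (0.0556) or limma without trend (0.0933). Tmx1 is also on the list that the study scored for monocyte-derived Kupffer cells. Of 10 HSF1 targets outside the 69 genes 1 rose and 0 fell, and this was Serpinh1 (HSP47), the collagen chaperone. Serpinh1 had 7.84, 7.05 and 8.25 TPM in Lyz2cre/+.Egr2fl/fl libraries and 3.50, 1.88 and 1.81 TPM in Egr2fl/fl libraries (1.39 ± 0.22, SE, limma adjusted p = 0.0134). Without Lyz2cre/+.Egr2fl/fl replicate 1 or 3 its adjusted p was 0.0644 or 0.0591. The endothelial markers were higher in the same libraries, and their part in the Serpinh1 level was not tested.

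Of all genes, 19.6% had an unadjusted p below 0.05 and 5.63% were higher by voom. Of 30 cytosolic co-chaperones and CCT partners 0 were called by limma, 3 had an unadjusted p below 0.05 and 1 was higher by voom. That gene was Fkbp5, an HSP90 co-chaperone and glucocorticoid receptor target, with 23.8, 29.8 and 49.8 TPM in Lyz2cre/+.Egr2fl/fl libraries and 16.4, 15.5 and 15.0 TPM in Egr2fl/fl libraries (1.02 ± 0.24, SE, limma adjusted p = 0.0565, voom 0.0137). All 3 Lyz2cre/+.Egr2fl/fl libraries were above all Egr2fl/fl libraries. The limma call was made without Lyz2cre/+.Egr2fl/fl replicate 1 (adjusted p = 0.0396) or 3 (0.0395). With all libraries it was made when genes under a mean of 5 TPM were left out (0.0435). It was not made without Lyz2cre/+.Egr2fl/fl replicate 2 (0.109) or without any 1 of the Egr2fl/fl libraries (0.138 to 0.161). Nor was it made with the replicate block (0.0986), without trend (0.111), with median-of-ratios scaling (0.0627) or with quantile normalization (0.0686). Bag5, an HSP70 exchange factor, differed by 0.31 ± 0.10 (limma adjusted p = 0.154). Of 13 mitochondrial folding partners 0 were called by limma or voom, 0 had an unadjusted p below 0.05, and all 13 intervals were within 0.5 log2 units. There, Phb (prohibitin) differed by 0.11 ± 0.06 and Htra2, a protease, by -0.10 ± 0.06. Over the 89 other folding genes the count was 2 higher and 0 lower, with a median difference of 0.03 and an interval within 0.5 log2 units for 71.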

How the data were processed

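Per the labels, directional libraries were made from total RNA of sorted cells (RNeasy Micro); the methods of the study name other kits for some bulk libraries. The authors trimmed reads with Trimmomatic 0.39.0, used HISAT2 2.2.1 for alignment to GRCm38 (mm10), dropped duplicate reads, counted genes with featureCounts 2.0.1 and deposited TPM, in which a gene can fall because others rise. By the study's gate the cells were CD11b+ Ly6G- Ly6C-low F4/80+.

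The 13777 of 13886 genes that averaged 1 TPM or more were tested on log2(TPM + 1) in limma 3.58.1 (R 4.3.3, lmFit and eBayes with trend, no covariates, 2-sided, Benjamini-Hochberg threshold 0.05), after tests on simulated data. This scale understates changes of low genes. Groups follow the genotype in each title, and libraries are labelled as biological replicates. TPM steps gave whole reads for all 13886 genes (tolerance 0.001 read), as lower bounds, for voom.

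1 of the 69 members is in the counts but is not reported here by name. The members and the gene lists were chosen with earlier results of these data known. Named genes were, by rule, the 2 lowest p and 2 highest means of each family, HSF1 targets, the called or 2 lowest-p genes of each list of other folding genes, and Egr2. Hspa9, Hspa13, Dnajb6, Dnajc3, Dnajc4, Dnajc17, Dnajc21, Dnajc30, Cct3, Cct4, Cct7, Cct8, Sdf2l1, Hyou1, Junb, Dnajc28, Adcy3 and the called cell type markers were added after their values were seen. Alternatives were pseudocounts of 0.1, 0.5 and 5, other filters and scalings, limma with robust variances or no trend, a replicate block, voom, stricter calls and each library left out.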

Additional observations from a re-analysis of the deposited data

How the results depend on the processing

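Of the 69 chaperone and folding genes, the count higher stayed at 0 under all alternatives run, and the count lower at 0 except 2 under voom and 0 to 2 when a library was left out. Other folding genes higher numbered 1 with median-of-ratios scaling, quantile normalization, limma without trend or the replicate block, 1 with at least 1 log2 unit required, 0 at an adjusted p below 0.01, 3 under voom or with a mean of at least 5 TPM required, against 2 in the main comparison, and 1 to 2 without a library, and those lower 0 to 1. All genes higher numbered 301 with the replicate block, 243 at 0.01, 302 with at least 1 log2 unit, and 300 to 422 without a library (the fewest without Lyz2cre/+.Egr2fl/fl replicate 1). All genes lower numbered 160 without trend, 130 with the block, 98 at 0.01, 66 with at least 1 log2 unit, and 134 to 195 without a library. Same-numbered libraries did not deviate together (correlations -0.03, 0.07 and -0.01), so the numbers were not taken as pairs, and the block called 0 of the 69 genes. Of 967 gene values under alternatives, 893 stayed on the same side of the threshold, 8 were newly called and 18 lost their call. The other 48, over 19 genes, changed sign without a call in either fit. With median-of-ratios scaling these were Dnaja1 (-0.045), Dnajb11 (-0.045), Hsp90b1 (-0.0093), Pdia3 (-0.014), Pdia6 (-0.030), Dnajb6 (-0.025) and Cct7 (-0.016), with quantile normalization Dnaja1 (-0.026), Dnajb11 (-0.031) and Dnajb6 (-0.0013), and with voom Dnaja1 (-0.025), Dnajb11 (-0.016), Pdia6 (-0.0040) and Dnajb6 (-0.00098). Without a library, differences ran from -0.098 to 0.12 for Dnaja1, -0.038 to 0.019 for Dnaja2, -0.13 to 0.12 for Dnajb11, -0.021 to 0.076 for Dnajb6, -0.021 to 0.26 for Dnajc3, -0.11 to 0.060 for Hsp90ab1, -0.11 to 0.14 for Hsp90b1, -0.056 to 0.43 for Hspa5, -0.39 to 0.055 for Hspb1, -0.18 to 0.23 for Hspb11, -0.028 to 0.49 for Hspb9, -0.084 to 0.057 for Hspd1, -0.31 to 0.15 for Hsph1, -0.17 to 0.32 for Hyou1, -0.028 to 0.095 for Pdia3, -0.051 to 0.39 for Pdia5, -0.11 to 0.15 for Pdia6 and -0.095 to 0.29 for Sdf2l1. The cause of these changes was not tested. Depth limits low genes such as Hspb9, which rested on at least 24 reads in all 6 libraries.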
